A study of Mus musculus with 4 samples.

Results

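The members described here were 28 genes of cholesterol synthesis and its control, taken by gene name from the deposited count table: enzymes that build mevalonate, prenyl units, squalene and sterols, the transcription factor SREBP2 with the proteins that hold it back, and proteins of sterol transport and lipoprotein receptor control. All 28 were among the 25655 genes of the table, and all 28 were kept by the low-count filter of edgeR, as were 12967 genes in total. The genes were picked by function and by no threshold on these values, although earlier results of these data were known when the list was drawn up. Liver RNA came from mice that the study's text gives as male, in 2 libraries labelled HFD-WT and 2 labelled HFD-KO. HFD-WT livers were from ADAR2+/+/GluR-B R/R mice and HFD-KO livers from ADAR2-/-/GluR-B R/R mice, so both groups carried the edited form of the glutamate receptor subunit, which spares mice without ADAR2 from early death, and neither was a wild type at that locus. Both groups came from crosses of heterozygous mice on a B6129S background and ate a high-fat diet (HFD) for 12 weeks from the age of 5 weeks. The knockout was present in every tissue and was not restricted to hepatocytes. The study's text gives more mice per group for its gene set analysis than there are libraries here, and how mice map to libraries is not given in the sources used here, so a p-value measures the spread between these libraries only. No library of mice on standard chow was analysed here.

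Cholesterol is made from acetyl-CoA through mevalonate, isoprenoid units, squalene and lanosterol, and the liver is one of its main sources in the body. SREBP2, encoded by Srebf2, turns on most genes of the pathway. When the endoplasmic reticulum is rich in sterols, INSIG proteins retain the SREBP2 escort SCAP there and the genes are little transcribed; when sterols fall, SCAP carries SREBP2 to the Golgi apparatus, where it is cut free and moves to the nucleus. Transcript levels of this pathway therefore tend to move as a block and are known to vary with diet, feeding and time of day.

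The libraries held between 24480798 and 28691330 counts, and 3 counts, taken as the smallest amount a library could show, corresponded to 0.104 to 0.126 CPM, the count scaled to a common library size. Member counts ran from 177 for Mvd to 8947 for Sc5d in a single library, far above that limit. Values below are CPM on a library size adjusted by the trimmed mean of M-values (TMM) unless TPM is named, and fold changes are HFD-KO against HFD-WT from edgeR's quasi-likelihood test, given with their standard errors (SE). Because each group had 2 libraries, the smallest p that an exact two-sided permutation test can give for 1 gene is 0.333. Adarb1, which encodes ADAR2, was at 15.7 and 19.8 CPM in HFD-WT and 6.23 and 9.54 CPM in HFD-KO livers. Both knockout libraries were below both HFD-WT libraries, the direction of the labels, and reads on the gene remained in them. The log2 fold change was -1.17, at an edgeR adjusted p of 0.159. Over the alternatives the adjusted p ran from 3.11e-07 without replicate 2 of HFD-KO to 0.971 without replicate 2 of HFD-WT, and it was under 0.05 with DESeq2's Wald test (0.000691), without the low-count filter (0.0025), with the replicate block (0.040) and without replicate 1 of HFD-KO (0.000227).

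The libraries of the HFD-KO group differed from each other, and this bears on nearly every value that follows. For the 8 listed B and plasma cell genes, the summed level was 19.4 and 15.7 CPM in HFD-WT, 126 CPM in HFD-KO replicate 1 and 18.2 CPM in HFD-KO replicate 2, and all 8 were at least 1.5-fold higher in replicate 1 than in replicate 2 of HFD-KO. For the 5 red cell genes, replicate 2 of HFD-KO was highest, with 1146 CPM against 600.2 to 810.4 CPM in the other libraries. The 14 macrophage and Kupffer cell genes summed to 559 and 697 CPM in HFD-WT and to 474 and 431 CPM in HFD-KO, with 13 of 14 log2 fold changes below 0. The 8 endothelial cell genes summed to between 265 and 312 CPM, and the 8 stellate cell genes to 379 and 424 CPM in HFD-WT and 331 and 268 CPM in HFD-KO. The 6 cholangiocyte genes summed to 71.6 and 90.6 CPM in HFD-WT and 59.6 and 50.1 CPM in HFD-KO. Most of that sum was Spp1, at 64.3 and 83.9 CPM in HFD-WT and 53.8 and 42.8 CPM in HFD-KO. Of 5 pancreatic acinar genes, 4 were below 0.2 CPM in every library. The tissue label was borne out by 7 hepatocyte genes, which summed to between 80388 and 92806 CPM. Of 18 clock genes in the table, 4 were higher and 2 lower in HFD-KO at an unadjusted p under 0.05 by edgeR. Of all genes tested, 4.25% were higher and 4.73% lower at that threshold. Over the 18 clock genes, the ratio of replicate 1 to replicate 2 of HFD-KO ran from 0.290 to 1.19. The lowest was that of Npas2, at 0.608 and 2.09 CPM in these libraries. In bulk tissue, fewer cells of a type and less RNA per cell cannot be told apart, and the part of these differences in the results below was not tested.

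Across the pathway, replicate 1 of HFD-KO stood high and replicate 2 stood at or under the HFD-WT level. In replicate 1, 24 of 28 members were above both HFD-WT libraries, against 36.4% of all genes tested. In replicate 2, 17 of 28 members were below both HFD-WT libraries, against 37.7% of all genes tested. Both were true of the same gene for 14 members, against 9.04% of all genes tested: Hmgcs1, Mvk, Idi1, Fdps, Fdft1, Sqle, Lss, Cyp51, Msmo1, Nsdhl, Sc5d, Dhcr7, Srebf2 and Tmem97. The reverse, replicate 1 below and replicate 2 above both HFD-WT libraries, was seen for 0 members and 9.01% of all genes tested. Replicate 1 lay below both HFD-WT libraries for 3 members, Aacs, Insig2 and Mylip (35.6% of all genes tested), and replicate 2 lay above both for 5 (38.6%). Relative to the HFD-WT mean, the median member was at a log2 ratio of 0.49 in replicate 1 and -0.13 in replicate 2, while the medians over all genes tested were 7.25e-05 and 0.00101.

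**Figure D1:**
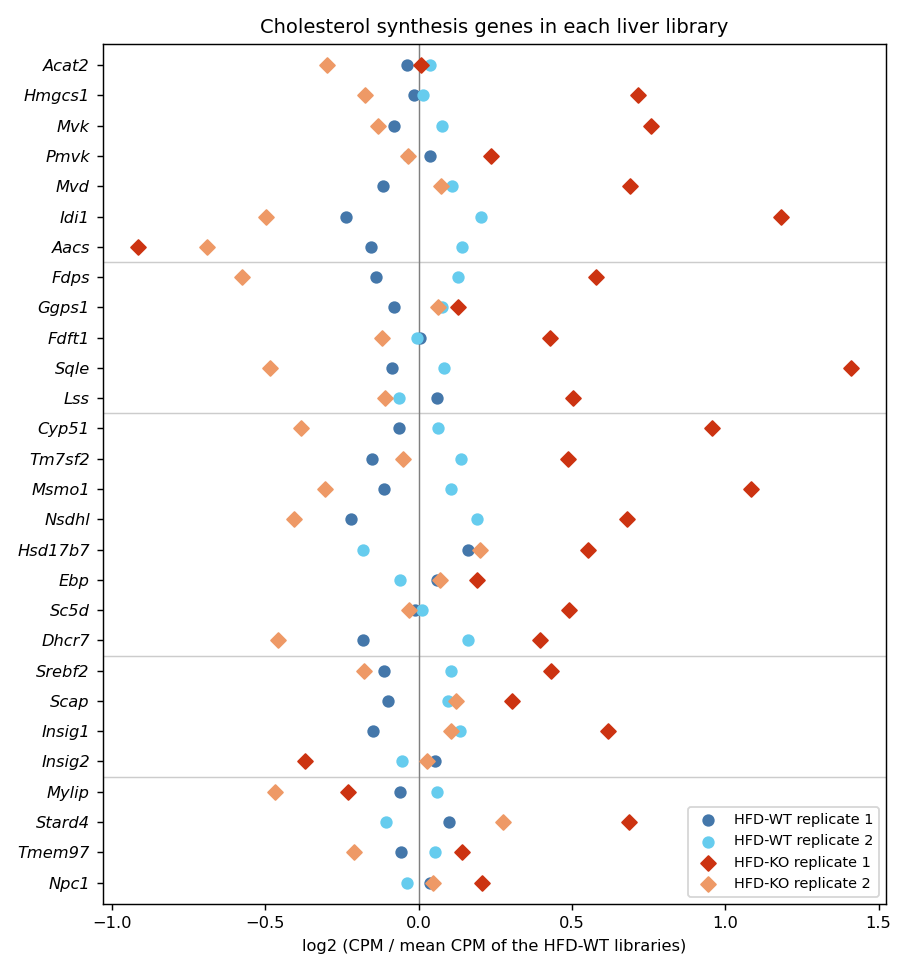
Level of each of the 28 members in each library, as the log2 ratio of its CPM to the mean CPM of the HFD-WT libraries, with circles for HFD-WT, diamonds for HFD-KO and lines between the groups of roles. Replicate 1 of HFD-KO lies to the right of both HFD-WT circles for 24 of 28 genes and replicate 2 to the left of both for 17.

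The gap between the HFD-KO libraries was far wider than that between the HFD-WT libraries. The median absolute log2 difference over the members was 0.53 between the HFD-KO libraries and 0.16 between the HFD-WT libraries, and over all genes tested it was 0.15 and 0.12. Replicate 1 of HFD-KO was at least 1.5-fold above replicate 2 for 12 of 28 members and 6.43% of all genes tested, and at least 2-fold above it for 6 members, Idi1, Fdps, Sqle, Cyp51, Msmo1 and Nsdhl, and 2.36% of all genes tested. The HFD-WT libraries were 1.5-fold apart for 0 members and 6.56% of all genes tested. The difference between the HFD-KO libraries was beyond counting error, by an exact 95% interval of the count ratio, for 27 of 28 members, all but Ggps1, and for 33.5% of all genes tested. Between the HFD-WT libraries this was so for 16 members and 27.3% of all genes tested. These intervals cover counting error only and compare libraries, not genotypes. They narrow as counts rise, and no member had fewer than 177 counts in a library. The shares beyond counting error therefore also depend on level of expression, which was not matched between members and all genes tested.

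**Figure D2:**
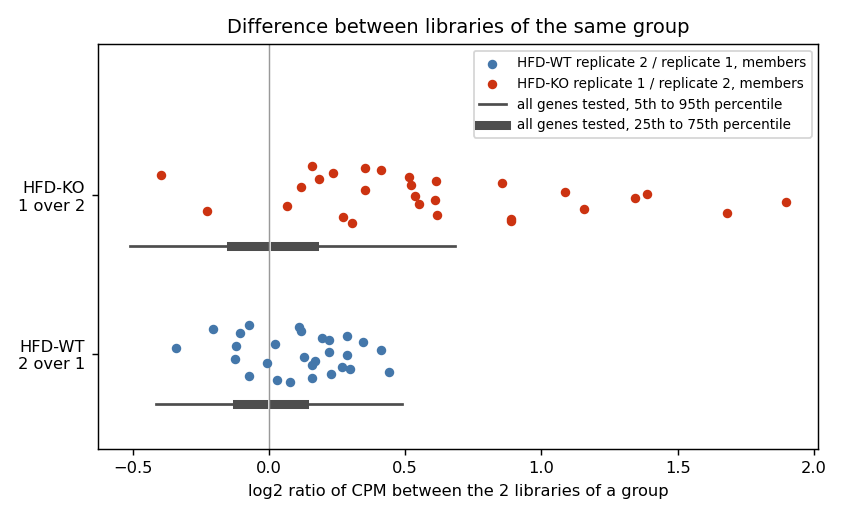
Log2 ratio of CPM between the 2 libraries of each group, with 1 point per member, a thick bar for the 25th to 75th percentile and a thin line for the 5th to 95th percentile of all genes tested. The HFD-KO points spread to the right, with a median of 0.53, and the HFD-WT points stay within 1.5-fold of equality.

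With both libraries of each group in the fit, 0 of 28 members had an adjusted p under 0.05 by edgeR, where 0.054% of all genes tested were higher and 0.0231% lower. At an unadjusted p under 0.05, Hsd17b7 and Stard4 were higher and Aacs and Mylip lower, that is 2 members in each direction against 4.25% and 4.73% of all genes tested. DESeq2's Wald test gave 0 members higher (0.324% of all genes) and 1 lower, Aacs (0.353%), at an adjusted p under 0.05. Without the low-count filter, edgeR called the same member lower, where 0.468% of all genes were lower and 4.03% were higher at an unadjusted p under 0.05, the latter with 5 members. Scaling by library size alone left 1 member higher at that unadjusted threshold (2.66%), and the replicate block gave 0 members at an adjusted p under 0.05 (0.0925% of all genes higher, 0.0617% lower). The median log2 fold change was 0.22 over the members and 0.0068 over all genes tested. Of the members, 23 were above 0 and 5 below, and of the 12967 genes tested, 6685 were above 0 and 6282 below. Without replicate 1 of HFD-KO the member median was -0.13, and without replicate 2 it was 0.49.

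**Figure D3:**
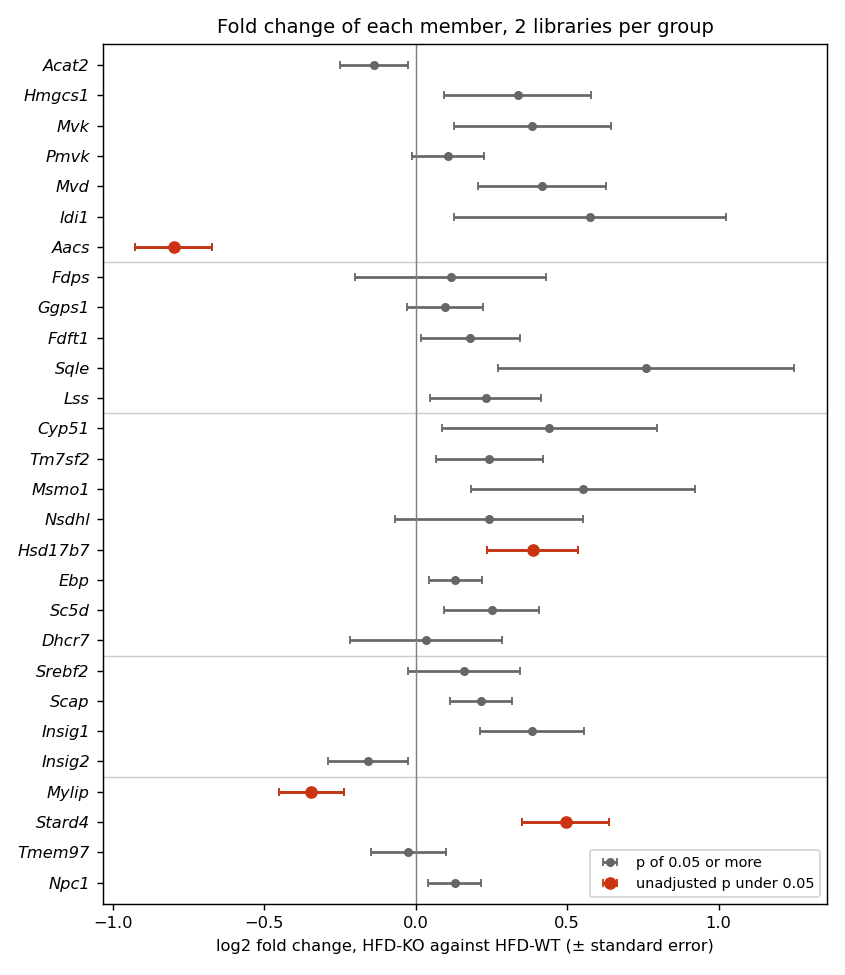
Fold change (log2) between the HFD-KO and HFD-WT groups for each member, with bars of 1 standard error from edgeR and lines between the groups of roles. The 4 members at an unadjusted p under 0.05, in red, are Aacs and Mylip on the left and Hsd17b7 and Stard4 on the right, and the widest bars belong to Sqle and Idi1, whose HFD-KO libraries were far apart.

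When only 1 HFD-KO library was set against the HFD-WT pair, the calls on the members split by library. Without replicate 2 of HFD-KO, 17 of 28 members were higher at an adjusted p under 0.05 by edgeR, against 1.69% of all genes, and 2 were lower, Aacs and Insig2, against 1.39%. The 17 were Hmgcs1, Mvk, Mvd, Idi1, Fdps, Fdft1, Sqle, Lss, Cyp51, Tm7sf2, Msmo1, Nsdhl, Hsd17b7, Sc5d, Srebf2, Insig1 and Stard4. Without replicate 1 of HFD-KO, 0 members were higher and 6 were lower at that threshold, Idi1, Aacs, Fdps, Cyp51, Dhcr7 and Mylip, against 2.83% and 2.48% of all genes. At an unadjusted p under 0.05 the members were 20 higher and 2 lower without replicate 2 (5.77% and 5.63% of all genes), and 1 higher and 10 lower without replicate 1 (8.25% and 8.12%). Leaving out an HFD-WT library gave 0 members at an adjusted p under 0.05. Without HFD-WT replicate 1, 0.0676% of all genes were higher and 0.0225% lower at that threshold, and without HFD-WT replicate 2, 0.0% in each direction. At an unadjusted p under 0.05, 2 members were higher and 2 lower without HFD-WT replicate 1 (2.85% and 3.91% of all genes), and 1 higher and 1 lower without HFD-WT replicate 2 (1.92% and 1.56%). Idi1, Fdps and Cyp51 were thus called higher against HFD-WT with one knockout library and lower with the other. In each of these fits the lone library is assumed to vary as the HFD-WT libraries do, which the wider gap between the HFD-KO libraries does not bear out, and the fits share the HFD-WT libraries.

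Among the enzymes from acetyl-CoA to the isoprenoid unit, the condensing and decarboxylating steps were high in replicate 1 of HFD-KO and the thiolase was not. Acat2, the cytosolic thiolase that joins acetyl-CoA units, was at 50.4 and 53.2 CPM in HFD-WT and 52.0 and 42.1 CPM in HFD-KO livers, so the groups overlapped. Hmgcs1, the cytosolic HMG-CoA synthase, was at 123 and 125 CPM in HFD-WT and 203 and 109.7 CPM in HFD-KO livers. Its log2 fold change was 0.34 with SE 0.24, at an edgeR adjusted p of 0.723, and the knockout values enclosed the HFD-WT values. Mvk, mevalonate kinase, was at 8.25 and 9.19 CPM in HFD-WT and 14.7 and 7.95 CPM in HFD-KO livers. Pmvk, which adds the next phosphate, was steadier, with 14.01 and 13.3 CPM in HFD-WT and 16.1 and 13.4 CPM in HFD-KO livers. Mvd, which removes the carboxyl group to give isopentenyl diphosphate, was at 6.49 and 7.60 CPM in HFD-WT and 11.4 and 7.41 CPM in HFD-KO livers. In all 3 genes replicate 1 of HFD-KO was the highest library, while replicate 2 lay within or just under the HFD-WT range. Idi1, the isomerase of that unit (ENSMUSG00000058258, chromosome 13 from 8935537 to 8942487 on GRCm39), was at 31.6 and 42.8 CPM in HFD-WT and 84.4 and 26.3 CPM in HFD-KO livers. The HFD-KO libraries were 3.20-fold apart (95% interval 2.93 to 3.51), and the log2 fold change of 0.58 had a standard error of 0.45.

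Aacs went the other way and was the member with the smallest p. It encodes acetoacetyl-CoA synthetase, which returns the ketone body acetoacetate to lipid synthesis in the cytosol (ENSMUSG00000029482, chromosome 5 from 125552878 to 125594474). Its level was 52.7 and 64.8 CPM in HFD-WT livers and 31.1 and 36.4 CPM in HFD-KO livers, so both knockout libraries were below both HFD-WT libraries. The log2 fold change was -0.80 with SE 0.13, at an edgeR adjusted p of 0.115, and over the alternatives the adjusted p ran from 4.95e-06 without replicate 2 of HFD-KO to 0.747 without replicate 2 of HFD-WT. The log2 fold change lay between -0.95 and -0.64 over the alternatives. With no overlap between the groups, leaving out 1 library could not change its sign, and the other alternatives refit the same libraries. Aacs was one of 2 members below both HFD-WT libraries in both knockout libraries, the other being Mylip, against 20.3% of all genes tested.

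The prenyl and squalene steps held the gene with the largest gap between the knockout libraries. Sqle, squalene epoxidase, an oxygen-requiring and tightly controlled step (ENSMUSG00000022351, chromosome 15 from 59186926 to 59203041), was at 11.0 and 12.4 CPM in HFD-WT and 31.0 and 8.33 CPM in HFD-KO livers. Replicate 1 of HFD-KO was thus 3.72-fold above replicate 2 (95% interval 3.18 to 4.37), the 64th largest such ratio of 12967 genes. Fdps, which makes farnesyl diphosphate, was at 55.9 and 67.3 CPM in HFD-WT and 92.0 and 41.3 CPM in HFD-KO livers. Fdft1, squalene synthase, was at 65.9 and 65.5 CPM in HFD-WT and 88.5 and 60.4 CPM in HFD-KO livers. Lss, which closes squalene epoxide into lanosterol, was at 16.7 and 15.3 CPM in HFD-WT and 22.6 and 14.8 CPM in HFD-KO livers. For each of these 4 enzymes the knockout libraries lay on either side of the HFD-WT pair. Ggps1, which turns farnesyl into geranylgeranyl diphosphate and so leads away from sterols, was at 8.15 and 9.09 CPM in HFD-WT and 9.42 and 8.999 CPM in HFD-KO livers. Its knockout libraries differed by 1.05-fold (95% interval 0.868 to 1.26), the smallest gap of any member. Summed over these 5 genes, the deposited TPM was 113 and 129 in HFD-WT and 174 and 89.7 in HFD-KO livers.

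The 8 enzymes from lanosterol to cholesterol all had fold changes above 0, from 0.034 for Dhcr7 to 0.55 for Msmo1, and all were highest in replicate 1 of HFD-KO. Cyp51, the lanosterol demethylase, was at 32.7 and 35.7 CPM in HFD-WT and 66.5 and 26.2 CPM in HFD-KO livers. Msmo1, which oxidizes the methyl groups at carbon 4, was at 47.6 and 55.5 CPM in HFD-WT and 109 and 41.7 CPM in HFD-KO livers. Nsdhl, its partner in that demethylation, was at 14.5 and 19.3 CPM in HFD-WT and 27.0 and 12.7 CPM in HFD-KO livers. For these genes, which act at neighbouring steps, the knockout libraries were 2.54-fold, 2.62-fold and 2.12-fold apart and enclosed the HFD-WT values. Dhcr7, which reduces 7-dehydrocholesterol in the final step, was at 29.0 and 36.8 CPM in HFD-WT and 43.3 and 23.9 CPM in HFD-KO livers. Sc5d, the sterol desaturase before it, was at 240.2 and 244 CPM in HFD-WT and 339.7 and 237 CPM in HFD-KO livers. Tm7sf2, a sterol reductase, was at 53.9 and 65.8 CPM in HFD-WT and 83.8 and 57.8 CPM in HFD-KO livers, and only replicate 1 of HFD-KO left the HFD-WT range.

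Hsd17b7 and Ebp were the enzymes of this stretch with both knockout libraries above both HFD-WT libraries, narrowly so for replicate 2. Hsd17b7, the keto-sterol reductase that works with Nsdhl and Msmo1 (ENSMUSG00000026675, chromosome 1 from 169777104 to 169796810), was at 33.2 and 26.2 CPM in HFD-WT and 43.5 and 34.1 CPM in HFD-KO livers. Its log2 fold change was 0.39 with SE 0.15, at an edgeR p of 0.035 unadjusted and 0.511 adjusted. Scaled by library size alone, its unadjusted edgeR p was 0.058, and leaving out 1 library gave log2 fold changes from 0.20 to 0.56. Ebp, the sterol isomerase, was at 137 and 126 CPM in HFD-WT and 149.7 and 138 CPM in HFD-KO livers. Between the groups, the fitted log2 difference was 0.13 with SE 0.088, at an edgeR adjusted p of 0.707. In all, 5 members had both knockout libraries above both HFD-WT libraries, Hsd17b7, Ebp, Scap, Stard4 and Npc1, against 20.5% of all genes tested.

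In the regulatory machinery, Srebf2, Insig1 and Scap were highest in replicate 1 of HFD-KO, as most of the enzymes were, and Insig2 was lowest there. Of these genes, only Srebf2 had replicate 2 of HFD-KO below both HFD-WT libraries. Srebf2 (ENSMUSG00000022463, chromosome 15 from 82031382 to 82089580) was at 53.8 and 62.6 CPM in HFD-WT and 78.5 and 51.4 CPM in HFD-KO livers. The fitted log2 difference was 0.16 with SE 0.19, at an edgeR adjusted p of 0.842. Insig1, the retention protein that SREBP2 itself induces (ENSMUSG00000045294, chromosome 5 from 28276361 to 28283660), was at 79.0 and 96.3 CPM in HFD-WT and 135 and 94.2 CPM in HFD-KO livers. Its log2 fold change was 0.38 with SE 0.17, at an edgeR adjusted p of 0.572, with replicate 2 of HFD-KO inside the HFD-WT range. Insig2, the retention protein whose liver transcript is known to respond to insulin and not to need SREBP2 (ENSMUSG00000003721, chromosome 1 from 121232082 to 121260318), was at 271 and 252 CPM in HFD-WT and 203 and 267 CPM in HFD-KO livers. Its log2 fold change was -0.16 with SE 0.13, at an edgeR adjusted p of 0.768. Replicate 1 of HFD-KO, the library with the highest Insig1, had the lowest Insig2, and the groups overlapped for both genes. Scap, the escort, was at 106 and 122 CPM in HFD-WT and 141 and 124 CPM in HFD-KO livers. Between the groups, the fitted log2 difference was 0.22 with SE 0.10, at an edgeR adjusted p of 0.603, with both knockout libraries above both HFD-WT libraries, narrowly so for replicate 2.

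Of the genes of sterol transport and receptor control, Stard4 was higher and Mylip lower in both knockout libraries. Stard4, a soluble carrier that moves cholesterol between membranes (ENSMUSG00000024378, chromosome 18 from 33332408 to 33346915), was at 31.9 and 27.7 CPM in HFD-WT and 47.9 and 36.0 CPM in HFD-KO livers. Its log2 fold change was 0.50 with SE 0.14, at an edgeR p of 0.0099 unadjusted and 0.383 adjusted. It lay between 0.28 and 0.68 over the alternatives, where the lack of overlap fixed its sign when 1 library was left out. Mylip, a ubiquitin ligase induced by liver X receptors that marks lipoprotein receptors for breakdown (ENSMUSG00000038175, chromosome 13 from 45543218 to 45565498), was at 22.9 and 24.9 CPM in HFD-WT and 20.4 and 17.3 CPM in HFD-KO livers. Its log2 fold change was -0.34 with SE 0.11, at an edgeR p of 0.014 unadjusted and 0.416 adjusted. The alternatives gave -0.47 to -0.23, and here too the lack of overlap fixed the sign when 1 library was left out. Tmem97, an endoplasmic reticulum protein that binds the lysosomal transporter NPC1, was at 60.3 and 65.1 CPM in HFD-WT and 69.1 and 54.2 CPM in HFD-KO livers. Npc1, the transporter that exports cholesterol from lysosomes, was at 140.0 and 133 CPM in HFD-WT and 158 and 141 CPM in HFD-KO livers. The fitted log2 difference was 0.13 with SE 0.088, at an edgeR adjusted p of 0.710. The knockout values of Tmem97 enclosed the HFD-WT values, and both knockout values of Npc1 were above them, replicate 2 narrowly.

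Compared per length in the deposited TPM, Insig2 and late enzymes of the pathway were the most abundant members. Insig2 was highest, at 179 and 171 TPM in HFD-WT livers, followed by Ebp at 156 and 147 TPM and Sc5d at 98.3 and 102 TPM, and none of these neighbours overlapped. Tmem97, Fdps, Hmgcs1 and Insig1 followed with means of 92.0, 70.0, 68.5 and 65.6 TPM, of which Fdps, Hmgcs1 and Insig1 overlapped with each other across the HFD-WT libraries. Ggps1 was lowest, at 3.44 and 3.93 TPM, below Lss at 6.75 and 6.35 TPM. In replicate 1 of HFD-KO the levels of Ebp, 164 TPM, and Sc5d, 133 TPM, both exceeded that of Insig2, 128 TPM, the reverse of their order in the other 3 libraries.

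**Figure D4:**
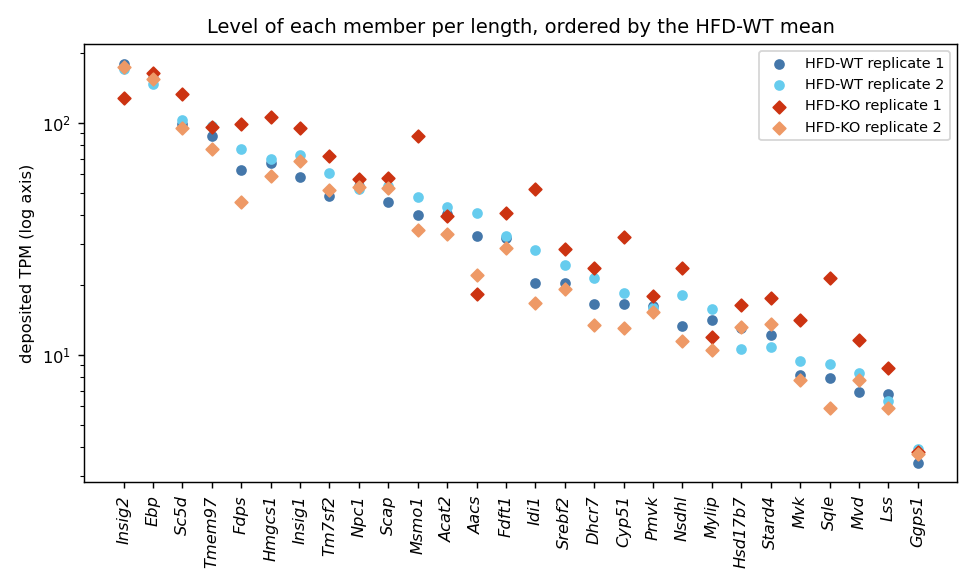
Deposited TPM of each member in each library on a log axis, ordered by the HFD-WT mean, with circles for HFD-WT and diamonds for HFD-KO. Levels run from Insig2, with a mean of 175 TPM in HFD-WT, to Ggps1, with 3.68 TPM, and replicate 1 of HFD-KO is set apart most at Sqle, Idi1, Msmo1 and Cyp51.

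The promoters of the members were read to show what they share apart from function. The RefSeq table of promoters on GRCm38.p6, with 250 bases before and 50 bases after each listed gene start, held 23 of the 28 members, and Fdps, Fdft1, Sqle, Stard4 and Npc1 were not in it. Letters of 3 motifs were searched on both strands: TCACNCCAC, a form of the sterol regulatory element bound by SREBPs, CCAAT, the box bound by NF-Y, and GGGCGG, the box bound by Sp1, the last 2 being known partners of SREBPs. CCAAT was present for 20 of 23 members (87.0%) against 41.1% of all 27025 genes of the table, and GGGCGG for 20 of 23 members (87.0%) against 38.2%, where a gene with several listed starts counts if any of them holds the letters. TCACNCCAC was present for 1 member, Hmgcs1, and 1.44% of all genes. The shares over all genes include genes that the low-count filter removed, whereas every member passed it. Shares among genes that passed the filter were not taken, so level of expression and pathway are not separated here. A match of letters is not a binding site, and other forms of the sterol element were not searched. The stretches before the start are printed for Hmgcs1, the member with that element, and for Aacs and Mylip, the members in the table with the smallest p, 5′ to 3′ on the strand of the gene, with matches of the 3 motifs on either strand in capitals. Each has 250 bases, at chr13:119690101-119690350 for Hmgcs1, chr5:125475623-125475872 for Aacs and chr13:45389492-45389741 for Mylip, all on the plus strand of GRCm38.p6.
Hmgcs1: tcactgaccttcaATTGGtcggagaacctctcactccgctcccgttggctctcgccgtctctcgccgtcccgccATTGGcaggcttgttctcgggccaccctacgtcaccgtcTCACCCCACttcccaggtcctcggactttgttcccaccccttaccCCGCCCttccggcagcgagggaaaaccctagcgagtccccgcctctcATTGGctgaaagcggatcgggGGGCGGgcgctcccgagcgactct
Aacs: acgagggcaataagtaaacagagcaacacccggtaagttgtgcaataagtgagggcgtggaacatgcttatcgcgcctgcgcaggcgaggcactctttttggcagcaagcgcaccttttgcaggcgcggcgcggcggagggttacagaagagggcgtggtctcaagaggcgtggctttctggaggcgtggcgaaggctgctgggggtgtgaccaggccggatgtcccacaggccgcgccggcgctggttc
Mylip: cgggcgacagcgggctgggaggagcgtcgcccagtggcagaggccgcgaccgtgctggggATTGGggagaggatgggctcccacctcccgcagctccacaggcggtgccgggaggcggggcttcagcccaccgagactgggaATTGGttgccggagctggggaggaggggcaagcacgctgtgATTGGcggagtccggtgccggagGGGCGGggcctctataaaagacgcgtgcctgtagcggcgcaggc
In the Hmgcs1 stretch the sterol element begins 137 bases before the start, between CCAAT boxes read on the opposite strand, which appear as ATTGG. The Mylip stretch holds CCAAT in that same reversed form and 1 GGGCGG, and the Aacs stretch holds none of the 3 motifs.

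Genes around the pathway were read from 3 further lists, and 0 of them had an adjusted p under 0.05 by edgeR. At an unadjusted p under 0.05, 4.25% of all genes tested were higher and 4.73% lower. Of 11 genes of SREBP processing and sterol sensing in the endoplasmic reticulum, 0 had an unadjusted p under 0.05, and their median log2 fold change was 0.023. Of 13 genes of the isoprenoid branch, which uses farnesyl and related units for protein prenylation, dolichol and ubiquinone, 1 was lower and 0 higher at an unadjusted p under 0.05, with a median of -0.057. That gene was Coq2, of ubiquinone synthesis, with 37.0 and 39.8 CPM in HFD-WT and 31.9 and 33.2 CPM in HFD-KO livers. Between the groups, the fitted log2 difference was -0.24 with SE 0.085, at an edgeR adjusted p of 0.475. Of 21 genes of sterol transport, esterification and efflux, 2 were lower and 0 higher at that threshold, with a median of -0.043. Abcg1, a sterol exporter, was at 11.0 and 12.8 CPM in HFD-WT and 9.91 and 8.33 CPM in HFD-KO livers. The fitted log2 difference was -0.38 with SE 0.14, at an edgeR adjusted p of 0.478. Lipa, the lysosomal lipase that frees cholesterol from its esters, was at 238 and 242 CPM in HFD-WT and 213 and 207 CPM in HFD-KO livers. Between the groups, the fitted log2 difference was -0.19 with SE 0.079, at an edgeR adjusted p of 0.529. Replicate 1 of HFD-KO was at least 1.5-fold above replicate 2 for 0 genes of any of these 3 lists, where the ratios ran from 0.578 to 1.17, from 0.867 to 1.23 and from 0.753 to 1.43, against 12 of the 28 members. The macrophage marker genes, whose summed level was lower in both HFD-KO libraries, moved in the same direction as Mylip, Abcg1 and Lipa, and their part in those values was not tested.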

How the data were processed

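Liver RNA of 4 libraries, 2 HFD-WT and 2 HFD-KO, was analysed, grouped by the sample labels. The authors extracted RNA with TRIzol, made strand-aware cDNA libraries, read both ends of fragments on an MGI sequencer (DNBSEQ-G400RS), checked and trimmed the reads with MGI's RNA-seq tool, aligned them to mm10 and obtained gene values from Partek Genomics Suite on GENCODE genes. The aligner, tool versions, use of strand and treatment of reads with several alignments are not given in the sources used here. The submitters' processing notes name GRCm39 and mm10; of 25600 genes paired by identifier with GENCODE M21 on GRCm38, 551 had the same position, and 0 of the members, so gene positions were taken as GRCm39. The deposited counts are whole reads per gene without normalization, and only they were tested. The deposited TPM values, scaled by the authors for length to an equal sum per library, were used for levels between genes. The deposited RPKM values and a deposited CPM score on an adjusted library size were not used.

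The counts were fitted by edgeR 4.0.16 under R 4.3.3 (filterByExpr, TMM, quasi-likelihood test, two-sided, Benjamini-Hochberg over 12967 genes). The standard error (SE) is the absolute log2 fold change divided by the square root of F. Alternatives were DESeq2 1.42.0, its size factors, library size alone, no filter, a replicate block and leaving out each library. The block gave no member an adjusted p under 0.05. Ratios between libraries have exact 95% intervals from scipy 1.17.1, for counting error only. Every member is named. Values with test results are given in full for members at an unadjusted p under 0.05 and for Srebf2, Scap, Insig1 and Insig2, and for further members where the text describes them. Genes of other lists are named at an unadjusted p under 0.05, up to 3 per list. Members, lists and tests were chosen with earlier results of these data known, and the marker and clock lists serve only as description.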

Additional observations from a re-analysis of the deposited data

How the results depend on the processing

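Without HFD-KO replicate 1 or without HFD-KO replicate 2 the members' results changed most, as the report gives. Over the fits that omit 1 library each (leave-one-out), members called at an adjusted p under 0.05 ranged from 0 to 17 higher and from 0 to 6 lower, members at an unadjusted p under 0.05 from 1 to 20 higher and from 1 to 10 lower, all genes called from 0 to 376 higher and from 0 to 329 lower, all genes at an unadjusted p under 0.05 from 255 to 1095 higher and from 207 to 1078 lower, and the member median from -0.13 to 0.49. The log2 fold change changed sign in at least one of these fits for Acat2 (-0.30 to 0.0061), Hmgcs1 (-0.17 to 0.71), Mvk (-0.13 to 0.76), Pmvk (-0.034 to 0.23), Idi1 (-0.50 to 1.18), Fdps (-0.58 to 0.58), Fdft1 (-0.12 to 0.43), Sqle (-0.48 to 1.41), Lss (-0.11 to 0.50), Cyp51 (-0.38 to 0.96), Tm7sf2 (-0.048 to 0.49), Msmo1 (-0.30 to 1.08), Nsdhl (-0.41 to 0.68), Sc5d (-0.031 to 0.49), Dhcr7 (-0.46 to 0.40), Srebf2 (-0.18 to 0.43), Insig2 (-0.37 to 0.029) and Tmem97 (-0.21 to 0.14). The other 10 members kept their direction in all 4. For Aacs, Mylip, Hsd17b7, Ebp, Scap, Stard4 and Npc1 the lack of overlap between the groups fixed this outcome.

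Without the low-count filter, 81 genes were higher and 81 lower at an adjusted p under 0.05, with 1 member lower and, at an unadjusted p under 0.05, 5 members higher. DESeq2's Wald test gave 56 genes higher and 61 lower, 1 member lower, and 304 and 372 genes at an unadjusted p under 0.05. Library size alone gave 4 genes higher, 345 higher against 894 lower at an unadjusted p under 0.05 (551 against 613 in the main comparison), 1 member higher at that threshold and -0.010 for Dhcr7. With the replicate block, 12 genes were higher and 8 lower, 0 members passed an adjusted p under 0.05 and Dhcr7 was at -0.011. The labels state no pairing, and deviations from the group means did not correlate positively between libraries of the same number (r = -0.075 over genes). With 2 libraries per group both pairs give the same r by construction, so this value cannot decide whether the samples were paired. DESeq2's size factors moved no count by more than 1.5 times. The cause of these shifts was not tested. The lowest count of a member in a library was 177.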
